A study of Mus musculus with 24 samples.

Results

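The ribosomal protein genes of mouse germ cells were followed through entry into meiosis in total RNA and in newly made RNA. They were taken by symbol, as Rpl or Rps followed by a number with its short paralog endings, the stalk genes Rplp0, Rplp1 and Rplp2, and Rpsa. That gave 90 of 52231 gene rows, with 51 genes of the large subunit, 36 of the small subunit and 3 of the stalk. The GENCODE annotation calls 84 of them protein coding and 6 pseudogenes. The paralogs Rpl10l, Rpl39l, Rpl3l and Rps27l were described apart. All mice were wild-type NMRI animals of 24 days, whose spermatogenesis had been synchronised with WIN18,446, which blocks the making of retinoic acid, followed by retinoic acid itself. They received 2 mg of EU, a uridine analog that is built into RNA, for 3 h before cells were sorted by ploidy. Total RNA and EU-labelled, or nascent, RNA came from different animals, and rRNA depletion was used for total RNA alone. In either assay 2 animals gave 3 spermatogonia libraries, 1 animal gave the preleptotene library, 3 animals gave 4 leptotene libraries and 2 animals gave 4 pachytene libraries. Animals were shared between stages. For total RNA, IND1 and IND3 gave spermatogonia and leptotene, IND4 leptotene and pachytene, and IND2 preleptotene and pachytene. For nascent RNA, IND5 and IND7, IND8, and IND6 did so in the same order. No animal gave both spermatogonia and pachytene.

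Ribosomal proteins surround the ribosomal RNA of both ribosome subunits and are needed in near equal amounts. Most mammalian ones are made from 1 active gene and leave behind many intronless copies in the genome. Their mRNAs begin with a run of pyrimidines, the 5′ TOP element, through which mTOR signalling adjusts their translation to growth conditions. Several of the genes lie on the X chromosome, which is silenced in pachytene spermatocytes, and autosomal paralogs of some are active in the male germ line.

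Values are the deposited FPKM, fragments scaled for gene length and library size, which can be compared between genes. Differences between stages are log2 differences of FPKM + 1 with their standard errors after the ± sign, which understates changes of genes at low levels. Each p-value is from limma, two-sided, and adjusted over all genes tested by the Benjamini-Hochberg method, and a gene was called at an adjusted p under 0.05. Libraries of the same animal were averaged first. The summed FPKM lay between 273338 and 442376 in total libraries and between 341597 and 807911 in nascent libraries, of which spike-ins took 2.49% to 8.19% and 5.01% to 76.5%. Leptotene library 2 stood apart in both assays: its 6 pachytene markers summed to 778 FPKM in total RNA, against 17.9 to 37.3 in the other leptotene libraries. Spermatogonia libraries held RNA of somatic cells. Their 6 peritubular and vascular markers summed to 155 to 385 FPKM in total RNA, against 0.322 to 0.948 in pachytene libraries, their 8 Sertoli markers to 91.2 to 136 against 1.64 to 3.69, and their 5 Leydig markers to 171 to 417 against 4.47 to 7.76. The part of these cells in differences from spermatogonia was not tested, and in bulk samples fewer cells of a type and less RNA per cell cannot be told apart.

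The 4 X-linked genes, Rps4x, Rpl10, Rpl39 and Rpl36a, were close to 0 in pachytene on their own rows. Each has an autosomal paralog whose total RNA was well above theirs there. In nascent RNA this did not hold for Rpl39l, which had 0.207, 0.399, 20.1 and 0.0773 FPKM in the pachytene libraries. For 3 of the pairs the reading frames are shown from the start codon, because their differences let reads that fall within the frames be given to either gene. Bases that differ within the pair are in capitals. Rpl39 and Rpl39l make a short protein that lines the exit tunnel of the large subunit, and the frames differ at 23 of 156 bases, 16 of them at the last position of a codon.
Rpl39: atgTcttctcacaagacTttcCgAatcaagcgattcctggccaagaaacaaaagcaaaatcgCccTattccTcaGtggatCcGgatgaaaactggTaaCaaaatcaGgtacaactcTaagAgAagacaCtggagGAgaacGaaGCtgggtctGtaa
Rpl39l: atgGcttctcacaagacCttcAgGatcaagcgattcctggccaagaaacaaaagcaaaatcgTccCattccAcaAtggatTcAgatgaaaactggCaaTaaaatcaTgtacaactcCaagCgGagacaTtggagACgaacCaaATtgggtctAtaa
Rpl10 and Rpl10l make a protein that joins the large subunit late in its assembly, near the site of peptide bond formation. Their frames differ at 98 of 645 bases, 89 of them at the last codon position, and the first 150 bases hold 25 of the differences.
Rpl10: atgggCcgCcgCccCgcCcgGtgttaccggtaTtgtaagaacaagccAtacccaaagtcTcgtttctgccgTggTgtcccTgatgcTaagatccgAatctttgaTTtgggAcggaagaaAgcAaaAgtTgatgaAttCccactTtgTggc
Rpl10l: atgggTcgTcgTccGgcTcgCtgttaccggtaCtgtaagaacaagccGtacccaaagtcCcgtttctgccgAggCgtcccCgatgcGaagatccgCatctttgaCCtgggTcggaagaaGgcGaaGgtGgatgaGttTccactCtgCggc
Rps4x makes a small subunit protein. Rps4l is annotated as a pseudogene, with 943 bases in exons. The annotated transcript used here, of 789 bases, is open over 262 codons from its first base, against 263 codons in Rps4x. The frames differ at 157 of 783 aligned bases, 127 of them at the last codon position, and 31 lie in the first 150 bases.
Rps4x: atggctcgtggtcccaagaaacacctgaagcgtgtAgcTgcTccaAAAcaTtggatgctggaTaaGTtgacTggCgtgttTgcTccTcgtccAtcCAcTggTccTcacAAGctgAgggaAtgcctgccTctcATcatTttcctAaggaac
Rps4l: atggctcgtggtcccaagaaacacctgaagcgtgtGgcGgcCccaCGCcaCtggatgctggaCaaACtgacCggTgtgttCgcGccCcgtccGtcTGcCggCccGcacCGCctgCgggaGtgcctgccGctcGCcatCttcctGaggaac

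Rps4x (mm10 chrX:102184941-102189394, minus strand) was the member with the largest fall. Its total RNA was 41.4, 61.1 and 19.2 FPKM in the spermatogonia libraries, 6.60 in preleptotene, 2.22, 0, 2.26 and 1.85 in leptotene and listed at 0 in all 4 pachytene libraries. No leptotene library reached the lowest spermatogonia library. The log2 change was -3.66 ± 0.44 in leptotene against spermatogonia (adjusted p 0.00324), -1.35 ± 0.44 in pachytene against leptotene (adjusted p 0.039) and -5.01 ± 0.49 in pachytene against spermatogonia (adjusted p 0.000866). Nascent Rps4x was low throughout, with 2.68, 3.60 and 0 FPKM in spermatogonia, 0.411 in leptotene library 4 and 0 in the other libraries, and was not called. Both assays thus had Rps4x at 0 in every pachytene library, and leptotene libraries were close to that.

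Rps4l (chr6:148354656-148355598, plus strand) stayed high while Rps4x was lost. It had 78.4, 70.8 and 91.5 FPKM of total RNA in spermatogonia, 104 in preleptotene, 103, 116, 97.0 and 100.04 in leptotene and 89.0, 136, 117 and 115 in pachytene. It was not called in any comparison (0.44 ± 0.34 in pachytene against spermatogonia, adjusted p 0.294). The summed FPKM of the pair therefore overlapped between 89.0 to 136 in pachytene and 111 to 132 in spermatogonia. Rps4l held 100% of that sum in each pachytene library and 53.7% to 82.6% in spermatogonia libraries. Nascent Rps4l lay between 24.1 and 43.6 FPKM over all 12 libraries.

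Rpl10 (chrX:74270812-74273135, plus strand) showed the same order of levels at later stages. Total Rpl10 was 12.3, 20.0 and 11.9 FPKM in spermatogonia, 8.18 in preleptotene, 6.73, 0.902, 7.47 and 6.26 in leptotene and 0.135, 0.245, 0.982 and 0.218 in pachytene. Leptotene library 2 was the low library of its stage. The gene fell in pachytene against leptotene (-2.18 ± 0.39, adjusted p 0.00428) and against spermatogonia (-3.44 ± 0.43, adjusted p 0.000982). Nascent Rpl10 was 2.71, 3.39 and 6.39 FPKM in spermatogonia, 2.47 in preleptotene, 2.04, 1.11, 2.28 and 1.24 in leptotene and 0.073, 0.0713, 0.617 and 0.176 in pachytene. It was thus low in all pachytene libraries of both assays, and nascent Rpl10 fell in pachytene against leptotene (-1.12 ± 0.39, adjusted p 0.0483) and against spermatogonia (-2.17 ± 0.43, adjusted p 0.00203). The nascent fall against leptotene was not called in 11 of 21 alternatives, with values from -2.64 to -0.348.

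Rpl10l (chr12:66283379-66284401, minus strand), which male mice need to complete meiosis, rose in both RNA kinds. Its total RNA was 42.4, 33.4 and 35.8 FPKM in spermatogonia, 44.2 in preleptotene, 41.3, 219.7, 31.9 and 43.8 in leptotene and 254, 334, 243 and 325 in pachytene. Pachytene libraries lay above all others, and leptotene library 2 came closest to them. The change was 2.46 ± 0.47 in pachytene against leptotene (adjusted p 0.0049) and 2.93 ± 0.51 against spermatogonia (adjusted p 0.00196). Nascent Rpl10l was 12.8, 12.4 and 14.7 FPKM in spermatogonia, 16.4 in preleptotene, 17.5, 37.6, 13.2 and 13.7 in leptotene and 55.3, 77.9, 38.1 and 120.3 in pachytene. Here too no pachytene library overlapped with another stage, and the rises were 1.93 ± 0.48 against leptotene (adjusted p 0.0117) and 2.21 ± 0.53 against spermatogonia (adjusted p 0.00591). The rise in total RNA exceeded that in nascent RNA by 0.71 ± 0.76, which was not called (adjusted p 0.797). The Rpl10 pair summed to 244 to 334 FPKM in pachytene and 47.7 to 54.7 FPKM in spermatogonia, and Rpl10l held 99.6% to 99.9% of it in pachytene and 62.5% to 77.4% in spermatogonia. With near-identical rows summed into each gene, the pair reached 248 to 337 FPKM in pachytene and 76.2 to 101 FPKM in spermatogonia, and Rpl10l held 98.2% to 99.8% in pachytene and 32.9% to 49.7% in spermatogonia.

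Rpl39 (chrX:37082520-37085402, minus strand) had 13.9, 14.2 and 11.8 FPKM of total RNA in spermatogonia, 9.25 in preleptotene, 7.51, 0.0883, 16.7 and 7.85 in leptotene and 0, 0.0857, 0.0221 and 0 in pachytene. It fell in pachytene against leptotene (-2.93 ± 0.62, adjusted p 0.00756) and against spermatogonia (-3.76 ± 0.68, adjusted p 0.00233). Its nascent level was 2.79, 0.436 and 0.865 FPKM in spermatogonia and 0 in every pachytene library, too low to be tested. The row of Rpl39 was therefore at or near 0 in pachytene in both assays. Summed with its near-identical rows, total RNA was 5.86 to 7.66 FPKM in pachytene and 27.7 to 34.5 FPKM in spermatogonia, and nascent RNA 2.78 to 5.02 FPKM in pachytene and 5.64 to 11.7 FPKM in spermatogonia.

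Rpl39l (chr16:10170226-10174911, plus strand), a germ line gene whose loss impairs sperm in mice, rose in total RNA and fell in nascent RNA, the fall being less stable. Total Rpl39l was 24.8, 0.311 and 33.5 FPKM in spermatogonia, 29.0 in preleptotene, 19.6, 2.45, 33.4 and 27.2 in leptotene and 139, 193, 157 and 199.9 in pachytene. Every pachytene library was above every other one, and 1 library each of spermatogonia and leptotene was far below its group. Total Rpl39l rose in pachytene against leptotene (3.09 ± 0.80, adjusted p 0.0159) and against spermatogonia (3.60 ± 0.88, adjusted p 0.00835). Nascent Rpl39l was 7.13, 8.55 and 9.27 FPKM in spermatogonia, 4.84 in preleptotene, 2.83, 16.4, 5.45 and 4.20 in leptotene and 0.207, 0.399, 20.1 and 0.0773 in pachytene. Pachytene library 3 was above all other nascent libraries and the other 3 pachytene libraries below them. Nascent Rpl39l fell in pachytene against spermatogonia (-1.94 ± 0.60, adjusted p 0.0229). The fall was not called in 8 of 21 alternatives, and values ran from -3.54 to -0.90. It was called without pachytene library 3 and not called without pachytene library 1 (-0.90). The total change exceeded the nascent change by 5.53 ± 1.17, which missed the threshold (adjusted p 0.0755). No row near-identical to Rpl39l was found in the transcript set, so a copy of that kind does not share its reads. With near-identical rows summed into Rpl39, Rpl39l held 94.8% to 96.6% of the pair in pachytene total RNA and 2.08% to 87.6% in pachytene nascent RNA.

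Rpl36a (chrX:134585654-134588062, plus strand), a large subunit gene, was the lowest X-linked member. Total Rpl36a was 1.36, 4.80 and 2.63 FPKM in spermatogonia, 0.567 in preleptotene, 0.651, 0.244, 2.74 and 0.418 in leptotene and 0.0596, 0, 0.086 and 0 in pachytene. It fell in pachytene against spermatogonia (-1.82 ± 0.45, adjusted p 0.0088), and its nascent RNA was listed at 0 in all pachytene libraries. Its autosomal paralog Rpl36al (chr12:69182731-69184083, minus strand) had 22.6, 24.8 and 2.77 FPKM in spermatogonia, 17.4 in preleptotene, 15.6, 40.5, 1.68 and 17.4 in leptotene and 43.6, 53.5, 6.05 and 43.6 in pachytene. Its libraries overlapped between stages, each of which held 1 low library, and it was not called (1.62 ± 1.17 in pachytene against spermatogonia, adjusted p 0.275).

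**Figure D1:**
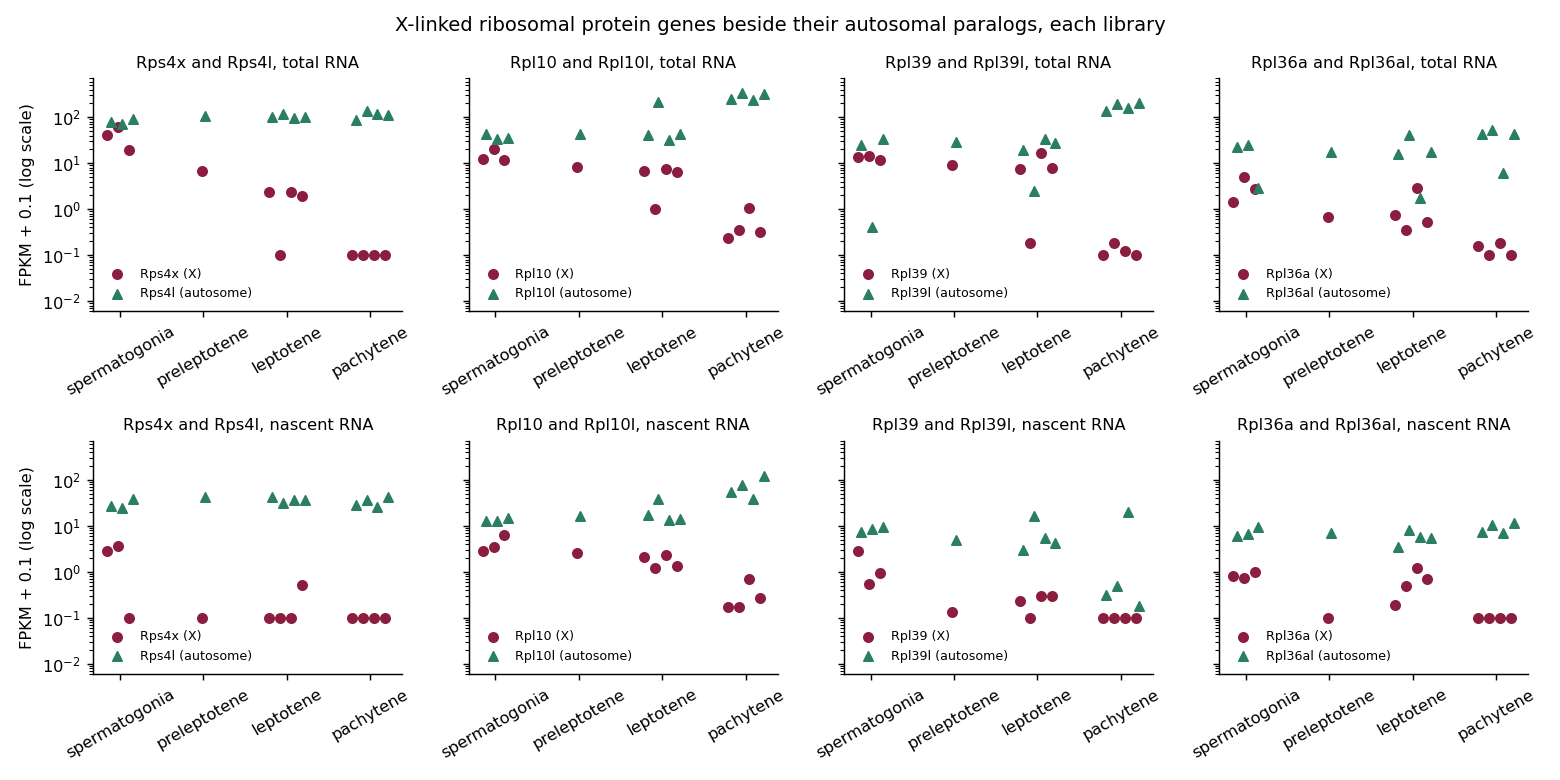
FPKM of the 4 X-linked ribosomal protein genes and their autosomal paralogs in each library, with total RNA in the upper row and nascent RNA in the lower row. The vertical axis is FPKM + 0.1 on a log scale and the horizontal axis gives the stage; points are libraries. The X-linked gene of each pair lies at or near 0 in pachytene, while Rpl10l and Rpl39l reach 243 to 334 and 139 to 199.9 FPKM in total RNA.

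Rps4x, Rpl10, Rpl39 and Rpl10l were called in total RNA of pachytene against spermatogonia under every alternative tried for them. Without leptotene library 2, the changes in total RNA of pachytene against leptotene were -1.63 for Rps4x, -2.52 for Rpl10, -3.42 for Rpl39, 2.86 for Rpl10l and 2.66 for Rpl39l, all called. With near-identical rows summed into each gene, the falls in pachytene against spermatogonia were -5.13 for Rps4x, -4.09 for Rpl10, -1.94 for Rpl39 and -2.25 for Rpl36a, all called. With the animal as a block, the pachytene rise of total Rpl39l was 2.52 against leptotene and 2.64 against spermatogonia and neither was called. In pachytene against leptotene, the falls of total Rps4x (-1.71) and nascent Rpl10 (-1.55) and the rise of nascent Rpl10l (2.79) were not called either. Few degrees of freedom are left in the block fit. A call lost under it, here or below, is therefore no sign of a smaller change.

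The remaining paralogs lay lower. Rps27l (chr9:66946086-66949516, plus strand), a p53 target related to Rps27, had 0.564, 0.196 and 0.162 FPKM of total RNA in spermatogonia, 17.3 in preleptotene, 0.992, 0.423, 1.32 and 1.05 in leptotene and 5.21, 1.01, 8.19 and 9.55 in pachytene. The single preleptotene library was the highest, and pachytene library 2 overlapped with leptotene. Rps27l rose in pachytene against leptotene (1.56 ± 0.32, adjusted p 0.00653) and against spermatogonia (2.23 ± 0.35, adjusted p 0.00142). Under the animal block the rises were 0.99 and 1.55, and neither was called. Its nascent RNA was 0.258, 1.45 and 0.353 FPKM in spermatogonia, 0.315 in leptotene library 3, 0.321 in pachytene library 2 and 0 in the other libraries. The frames of Rps27 and Rps27l differ at 60 of 253 aligned bases.

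Rpl3l (chr17:24727820-24736143, plus strand), known from heart and skeletal muscle as a substitute for Rpl3, was scarcely present. Total Rpl3l was 0.162, 0.180 and 0.701 FPKM in spermatogonia, 0.378 in preleptotene, 0.204, 0.327, 0.569 and 0.149 in leptotene and 1.26, 1.38, 0.651 and 1.79 in pachytene. All pachytene libraries were above all leptotene libraries, and Rpl3l rose between them by 0.76 ± 0.26 (adjusted p 0.0434), though not against spermatogonia (0.66 ± 0.28, adjusted p 0.0778). Only pachytene libraries reached the 1 FPKM needed for testing. Rpl3l was therefore tested because of the stage in which it was high, and its call adds no support to these values. Under the animal block the rise against leptotene was 0.72 and not called. Rpl3 itself fell in pachytene against spermatogonia (-1.63 ± 0.42, adjusted p 0.0104), and Rpl3l held 6.91% to 40.7% of the FPKM of that pair in pachytene and 0.644% to 3.39% in spermatogonia. With near-identical rows summed into Rpl3, these shares were 0.990% to 3.04% in pachytene and 0.103% to 0.567% in spermatogonia. Rpl22l1, which can stand in for the RNA-binding Rpl22, had 11.6 to 12.9 FPKM in pachytene and 8.90 to 18.4 FPKM in spermatogonia and was not called. Rpl7l1, a relative of Rpl7 linked to ribosome assembly, had 12.8 to 18.6 FPKM in pachytene and 18.0 to 22.8 FPKM in spermatogonia and was not called either.

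The share of RNA held by the whole group depended on which other rows were counted. As a share of all FPKM without spike-ins, the members held 0.796% ± 0.0670 in spermatogonia, 0.538% in the preleptotene library, 0.513% ± 0.0656 in leptotene and 0.749% ± 0.112 in pachytene total RNA (SD over 2, 3 and 2 animals). In nascent RNA the shares were 0.178% ± 0.00952, 0.113%, 0.117% ± 0.0261 and 0.134% ± 0.0174. When rows of structural RNAs were left out, total shares were 1.87%, 1.40%, 1.28% and 1.12% and nascent shares 0.525%, 0.317%, 0.370% and 0.360%, so that the mean of pachytene lay below that of leptotene and not above it. That order lay within the spread of animals, with 1.12% ± 0.174 in pachytene and 1.28% ± 0.167 in leptotene total RNA and 0.360% ± 0.0130 and 0.370% ± 0.0811 in nascent RNA (SD over 2 and 3 animals). The shares of leptotene were below those of spermatogonia on both bases. These shares are descriptions and were not tested.

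The median member had its lowest mean in pachytene in both assays, but the order of pachytene and leptotene lay within the spread of animals. The median member had 13.4 ± 2.27 FPKM in spermatogonia, 9.14 in preleptotene, 8.68 ± 2.70 in leptotene and 7.46 ± 1.37 in pachytene total RNA. In nascent RNA it had 3.09 ± 0.637, 1.80, 1.64 ± 0.378 and 1.49 ± 0.276 FPKM (SD over 2, 3 and 2 animals). Paralogs, counting the 4 described apart with Rps4l, Rpl36al, Rpl22l1 and Rpl7l1, made up 7.38% ± 0.977 of the members' total FPKM in spermatogonia, 12.8% in preleptotene, 12.7% ± 3.79 in leptotene and 30.8% ± 0.885 in pachytene. In nascent RNA they made up 14.9%, 23.6%, 23.5% and 39.3%. The growing paralog part of the sum was seen in both assays, with 29.3% to 31.9% in the pachytene libraries of total RNA and 5.70% to 8.07% in those of spermatogonia. These parts count own rows only. In total RNA the own row held a median of 29.3% of the FPKM summed with near-identical rows, described below. For these paralogs it held from 51.6% (Rpl36al) to 100% (Rpl39l and Rpl3l). The size of the paralog part therefore depends on the rows counted, and it was not computed with near-identical rows.

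**Figure D2:**
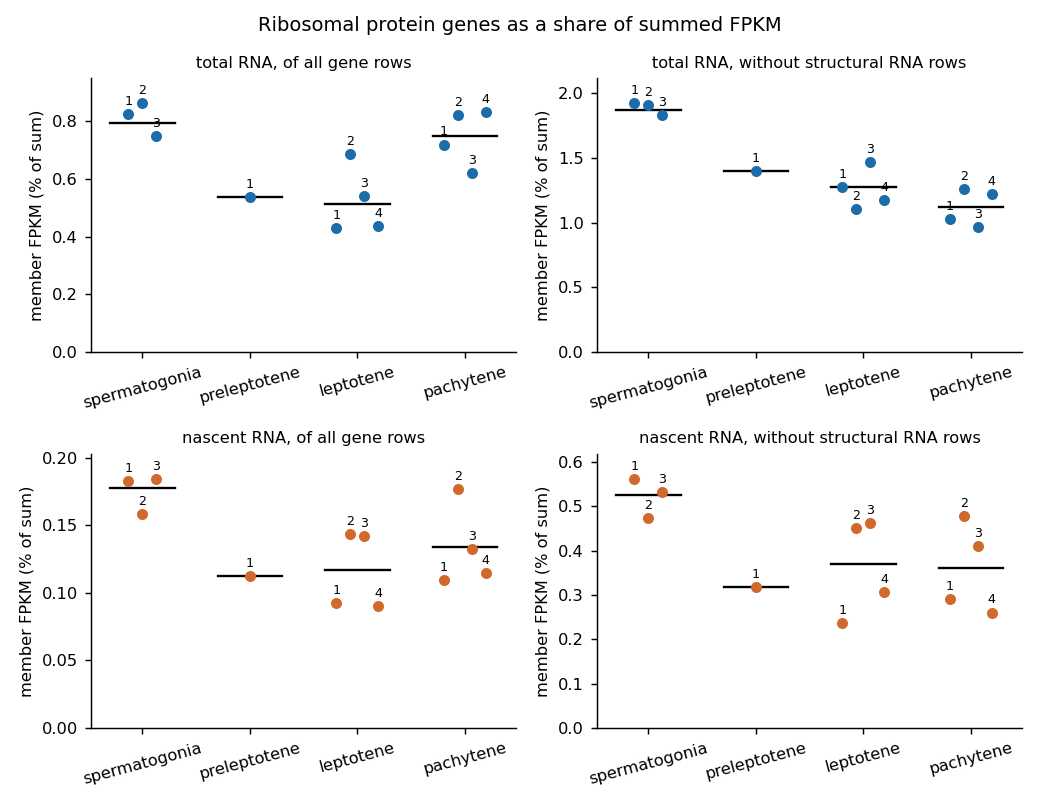
Ribosomal protein genes as a percentage of FPKM without spike-ins, for total RNA in the upper panels and nascent RNA in the lower panels, over all gene rows on the left and without structural RNA rows on the right. Numbered points are libraries and short horizontal lines the means of animals at each stage. Pachytene lies above leptotene on the left of the total RNA panels (0.749% and 0.513%) and below it on the right (1.12% and 1.28%).

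In total RNA of leptotene against spermatogonia, 0 of 89 tested members rose and 2 fell (2.25%), while 0.286% of all 19202 genes rose and 9.52% fell. The share of members that fell lay below that of all genes, while most members had a value below 0. Their median change was -0.47, with 72 of 89 below 0, and the median of all genes was -0.07, with 54.5% below 0. At an unadjusted p under 0.05 the limma fit gave 1 higher and 13 lower members. Rps4x was 1 of the 2 falls and Rpl15, a large subunit gene, the other. Total Rpl15 was 2.89, 8.51, 13.03 and 6.86 FPKM in leptotene, against 32.1, 40.6 and 33.3 FPKM in spermatogonia. The groups did not overlap and the change was -2.03 ± 0.41 (adjusted p 0.0153). With the near-identical rows of Rpl15 summed in, it was -0.78 and not called. Falls numbered 5 without leptotene library 2, 6 without leptotene library 3 and 1 without leptotene library 1 or 4 or spermatogonia library 3, and 1 member rose without spermatogonia library 1. Blocking by animal gave 1 rise and 6 falls. Here and below, counts for fits without a library or with the animal as a block lack the share of all genes called. That share can move between fits too, so these counts do not show members changing apart from other genes.

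In total RNA of pachytene against leptotene, 4 members rose (4.49%) and 6 fell (6.74%), while 22.4% of all genes rose and 17.7% fell. The 4 rises were Rpl10l, Rpl39l, Rpl3l and Rps27l, and the falls included the X-linked Rps4x, Rpl10 and Rpl39. Of the rises, Rpl3l was tested only through its pachytene levels. The median member change was -0.05 and that of all genes -0.07. At an unadjusted p under 0.05, 19.1% of members and 50.3% of all genes differed. Among the 73 autosomal members that are neither paralogs nor pseudogenes, 0 rose and 3 fell, among them Rps15 and Rpl29. Rps15, a late-joining small subunit gene, had 5.98, 50.9, 4.66 and 5.64 FPKM in pachytene, against 42.3, 33.2, 70.5 and 42.7 FPKM in leptotene. Pachytene library 2 lay inside the leptotene range, and spermatogonia held 96.9, 7.55 and 10.3 FPKM, so levels of this gene varied widely within stages (-2.19 ± 0.58, adjusted p 0.0169). Rpl29 fell by 1.51 ± 0.30 (adjusted p 0.00577) on its own row. With its near-identical rows summed in, it rose by 1.05 ± 0.33 (adjusted p 0.0328), so no direction of Rpl29 RNA can be read from these rows. Without leptotene library 2, 7 members rose and 15 fell, without leptotene library 1 the counts were 0 and 0, 2 rose without pachytene library 4 and 10 fell without pachytene library 3. Blocking by animal gave 2 rises and 5 falls, and Rps15 (-1.95) was not called.

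In total RNA of pachytene against spermatogonia, 3 members rose (3.37%) and 21 fell (23.6%), while 23.1% of all genes rose and 29.7% fell. The share of falls lay below that of all genes. The median change was -0.58 with 66 of 89 members below 0, against a median of -0.14 and 53.8% below 0 over all genes. The other scalings multiply all genes of a library by the same factor. They could therefore hardly change the distance between the members' median and that of all genes. The members' median was -0.31 with libraries set to equal medians, where all genes stood at 0.09. It was 0.01 with spike-in scaling, where all genes stood at 0.37. Under these scalings 13 and 6 members fell, as did 24.8% and 23% of all genes. Of the 73 autosomal members without paralogs and pseudogenes, 0 rose and 15 fell. These were 8 of 40 in the large subunit, 5 of 30 in the small subunit and 2 of 3 in the stalk.

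The stalk binds the factors that drive translation. Its base, Rplp0, had 176, 227, 115 and 213 FPKM of total RNA in pachytene, against 158, 206 and 139 FPKM in spermatogonia. The groups overlapped and Rplp0 was not called (0.16 ± 0.37). Rplp1 had 139.6, 214, 162 and 177 FPKM in pachytene, against 294, 408 and 340 FPKM in spermatogonia, and fell by 1.0 ± 0.34 (adjusted p 0.0352). Rplp2 had 5.14, 4.89, 4.68 and 5.45 FPKM in pachytene, against 14.2, 15.2 and 12.8 FPKM in spermatogonia, and fell by 1.28 ± 0.35 (adjusted p 0.0135). The groups did not overlap for either of these dimer-forming partners. Rpsa, the small subunit protein also known as laminin receptor, had 13.4, 18.5, 12.3 and 16.2 FPKM in pachytene, against 42.4, 38.9 and 33.0 FPKM in spermatogonia, and fell by 1.24 ± 0.36 (adjusted p 0.0175). Under the animal block, Rplp1 (-1.26), Rplp2 (-1.78) and Rpsa (-1.38) were not called.

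Among other small subunit genes, Rps3a1, an early-binding protein, had 28.1, 52.1, 41.7 and 40.9 FPKM in pachytene, against 139, 181 and 131 FPKM in spermatogonia. Pachytene libraries all lay below spermatogonia and the fall was -1.83 ± 0.40 (adjusted p 0.0051). The fall of Rps15a was -1.57. In the large subunit the largest autosomal falls were Rpl29 (-1.97), Rpl3 (-1.63), Rpl19 (-1.59), Rpl13a (-1.55) and Rpl10a (-1.53), of which Rpl29 rests on its own row alone (0.56 and not called with its near-identical rows). Rpl4, which reaches into the exit tunnel, had 32.2, 44.1, 33.9 and 39.5 FPKM in pachytene, against 90.2, 96.5 and 66.1 FPKM in spermatogonia, and fell by 1.06 ± 0.38 (adjusted p 0.0411). Rps14, another of the most abundant small subunit genes, was not called (-0.64 ± 0.37).

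Rpl8, at the peptide-forming centre of the large subunit, had the highest mean of the large subunit genes and no near-identical row. Total Rpl8 was 141, 205, 125 and 163 FPKM in pachytene, against 143, 189 and 153 FPKM in spermatogonia. The groups overlapped and Rpl8 was not called. The falls were therefore not shared by every abundant member, and the somatic marker RNA given above was present in the same spermatogonia libraries. The part of that RNA in these differences was not tested. Falls numbered 12 without spermatogonia library 3 and 9 without leptotene library 1, which enters the shared estimate of spread.

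Nascent levels were lower, and 78 members could be tested. In leptotene against spermatogonia 0 members rose and 2 fell (2.56%), while 0.696% of 16375 genes rose and 9.9% fell. At an unadjusted p under 0.05 the limma fit gave 1 higher and 19 lower members. The median change was -0.58 with 67 of 78 below 0, against -0.08 and 54.4% below 0 over all genes. The 2 falls were the small subunit genes Rps15 (-1.75 ± 0.44, adjusted p 0.0249) and Rps9 (-1.47 ± 0.35, adjusted p 0.0195). Nascent Rps9 was 1.39, 2.75, 2.005 and 2.08 FPKM in leptotene, against 3.97, 10.4 and 8.39 FPKM in spermatogonia, with no overlap. Nascent Rps15 was 3.50, 11.5, 4.41 and 5.72 FPKM in leptotene, against 14.4, 16.7 and 28.0 FPKM in spermatogonia, also with no overlap. Falls numbered 15 without leptotene library 3, 4 without spermatogonia library 2, 1 without spermatogonia library 3 and 0 without leptotene library 1 or 4, and 2 members rose without leptotene library 3. Blocking by animal gave 1 rise and 9 falls, and neither Rps15 (-1.62) nor Rps9 (-1.47) was called.

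In nascent RNA of pachytene against leptotene 1 member rose (1.28%), Rpl10l, and 3 fell (3.85%), while 15.8% of all genes rose and 15.4% fell. The median member change was -0.25 and that of all genes -0.27. The falls were Rpl10, Rpl41 (-1.54 ± 0.50, adjusted p 0.037) and Rps7 (-1.15 ± 0.36, adjusted p 0.0311). Rpl41, the smallest ribosomal protein, had 4.48, 34.7, 1.82 and 0.955 FPKM in pachytene, against 5.77, 20.7, 23.8 and 14.5 FPKM in leptotene. Pachytene library 2 was the highest of all 8, so the fall rests on the other 3 pachytene libraries. Total Rpl41 ranged from 4.61 to 216 FPKM within leptotene and was not called. With the animal as a block, Rpl41 (-1.57) and Rps7 (-1.59) were not called. Both falls were read from own rows. With near-identical rows summed in, nascent Rps7 was 15.8, 14.3, 15.4 and 17.3 FPKM in pachytene, against 13.6, 21.4, 22.4 and 15.4 in leptotene. Nascent Rpl41 was then 27.6, 71.9, 34.3 and 39.0 FPKM in pachytene, against 22.9, 52.9, 61.3 and 44.7 in leptotene. The stages overlapped in both sums. Rises numbered 0 without leptotene library 1, 3 without leptotene library 3 and 2 without leptotene library 4 or pachytene library 3. Falls numbered 0 without leptotene library 1 and 1 without leptotene library 4, pachytene library 2 or spermatogonia library 3.

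In nascent RNA of pachytene against spermatogonia 2 members rose (2.56%) and 16 fell (20.5%), while 15.6% of all genes rose and 27.9% fell. The median change was -0.79 with 68 of 78 below 0, against -0.39 and 63.0% below 0 over all genes. With libraries set to equal medians the members' median was -0.35 and that of all genes 0.02. Rpl10l rose, and so did Rpl22 (1.23 ± 0.44, adjusted p 0.0433), which had 1.72, 1.82, 0.816 and 3.84 FPKM in pachytene, against 0.291, 0.222 and 0.195 FPKM in spermatogonia. Nascent Rpl22 thus did not overlap, whereas total Rpl22 was 0.579, 3.62, 2.42 and 0.884 FPKM in pachytene, against 14.4, 21.01 and 0.888 FPKM in spermatogonia, and was not called. Falls numbered 4 without spermatogonia library 3 and 27 without leptotene library 3. A single rise was left without spermatogonia library 2 or 3, leptotene library 1 or pachytene library 1 or 4.

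Rps6, the substrate of the S6 kinases, fell in nascent RNA and was not called in total RNA. Nascent Rps6 was 2.16, 3.56, 1.93 and 2.34 FPKM in pachytene, against 12.4, 12.4 and 14.7 FPKM in spermatogonia (-2.07 ± 0.56, adjusted p 0.0116). Total Rps6 was 28.7, 39.7, 25.01 and 27.2 FPKM in pachytene, against 34.96, 38.5 and 33.9 FPKM in spermatogonia (-0.24 ± 0.35, adjusted p 0.595). The difference between the assays was 1.83 ± 0.69 and was not called (adjusted p 0.276). Rps9 (-2.0 ± 0.39), Rps14 (-1.79 ± 0.45), Rps3a1 (-2.08 ± 0.60), Rpl41 (-2.13 ± 0.55), Rpsa (-1.47 ± 0.43) and Rpl4 (-1.55 ± 0.55) also fell in nascent RNA. With the animal as a block, Rpl41 (-2.44) and Rpsa (-0.70) were not called. With near-identical rows summed in, nascent Rpl41 overlapped, with 27.6 to 71.9 FPKM in pachytene and 39.7 to 72.0 FPKM in spermatogonia. Among the 78 members tested in both assays, 18 fell in total RNA and 16 in nascent RNA, and 8 fell in both, which is 44.4% of the first list and 8 of 16 in the second. Over all 15914 genes tested in both assays, the falls shared were 82.8% of those in total RNA and 84.1% of those in nascent RNA. The 8 members were Rpl10, Rpl13a, Rpl15, Rpl19, Rpl4, Rps3a1, Rps3a2 and Rpsa. Rps3a2 is annotated as a processed pseudogene and shares its near-identical rows with Rps3a1, so their falls may not be separate.

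Nascent changes of leptotene differed between the authors' tables. The 5S-corrected table, which multiplies each of 9 nascent libraries by a constant, lacks 3 of the libraries, so it was set beside the uncorrected values of the same 9 libraries. In leptotene against spermatogonia the corrected table gave 39 of 76 tested members lower, while 27.1% of all its genes were lower. The uncorrected values of these libraries gave 26 of 77 lower, while 23.1% of all genes were lower, against 2 of 78 over all 12 libraries. The medians were -1.55 for members and -0.99 for all genes in the corrected table, and -0.87 and -0.10 in the uncorrected values. In pachytene against leptotene the corrected table gave 17 members higher and 0 lower (32.6% and 1.26% of all genes), with medians of 1.14 and 0.86. The uncorrected values gave 5 higher and 7 lower (22.3% and 29.8% of all genes), with medians of -0.16 and -0.24. The direction of the pachytene change against leptotene therefore differed between the tables over the same libraries, for the median member and the median gene alike. Rpl10l was higher in pachytene than in leptotene in both tables (4.20 in the corrected one), and against spermatogonia the corrected medians were -0.47 for members and -0.09 for all genes, with 8 members lower (22.8% of all genes).

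Total RNA was then set beside nascent RNA, gene by gene, to see which members were more abundant in the RNA a cell holds than in the RNA it was making. On the log2 scale of FPKM + 1, the median member was higher in total than in nascent RNA by 1.49 in spermatogonia, 1.48 in preleptotene, 1.62 in leptotene and 1.74 in pachytene. The median gene was higher by 0.32, 0.17, 0.30 and 0.40. Of 89 members, 81, 80, 86 and 80 lay above the median gene in these stages. Genes at low levels in both assays have differences near 0 on this scale, and members were not set against genes of like level. With spike-ins left out of the sums the member medians were 1.40, 1.35, 1.39 and 1.61 and the gene medians 0.26, 0.10, 0.19 and 0.34. The excess is a difference of 2 library kinds as well as of RNA age: rRNA depletion was used for total RNA alone, and the part of that step was not tested.

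Groups of members differed in how this excess moved over the stages. The X-linked members had medians of 2.08, 2.17, 1.20 and 0.04 in the 4 stages, in their order, where the pachytene value is a floor because both assays were at or near 0 there. The paralogs described apart had 0.50, 1.87, 1.21 and 2.27. The 73 autosomal members without paralogs and pseudogenes had 1.71, 1.501, 1.74 and 1.77, and varied little. These are descriptions over few genes in the first 2 groups, with 4 genes each.

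**Figure D3:**
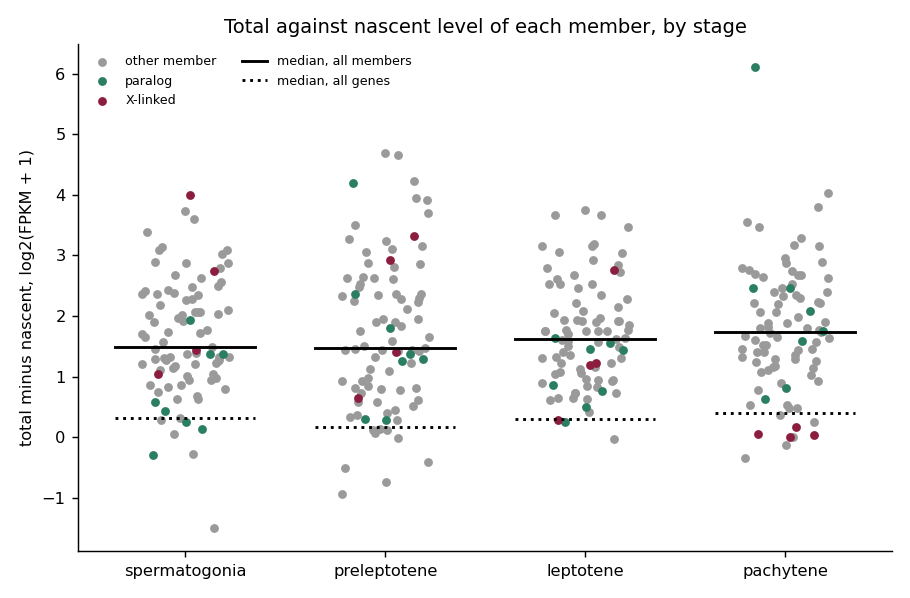
Total minus nascent RNA of each ribosomal protein gene, in log2 of FPKM + 1, by stage. Points are genes, solid lines the medians of the members and dotted lines the medians of all genes tested. Member medians lie between 1.48 and 1.74 and gene medians between 0.17 and 0.40.

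The change of total RNA between stages was tested against the change of nascent RNA in a single fit. In leptotene against spermatogonia 0 members were called in either direction (0.0102% of 19663 genes were higher and 0.0915% lower), with 2 higher and 1 lower at an unadjusted p under 0.05 by limma. In pachytene against leptotene there were again 0 (0.061% of genes higher and 0.0153% lower), with 2 and 5 unadjusted. In pachytene against spermatogonia 1 member was called as higher and 0 as lower (0.0915% and 0.173% of genes), with 6 and 3 unadjusted. The member was Rps27l, which did not reach the filter in nascent RNA and entered this fit through total RNA alone, so its call restates the rise in total RNA. Of the 78 members that were tested in both assays, 0 were called in each of the 3 comparisons, with 1 and 1, 1 and 4, and 4 and 2 at an unadjusted p under 0.05 by limma. Without total leptotene library 2, 1 of these 78 was called as higher and 2 as lower in pachytene against leptotene and likewise against spermatogonia, with Rpl39l higher in both. Of all 15914 genes tested in both assays, that fit called 1.77% as higher and 0.295% as lower against leptotene. Against spermatogonia it called 0.685% and 0.383%. In the fit over all libraries, Rps4x (-3.99 ± 0.80, adjusted p 0.0562), Rpl39l (5.53 ± 1.17, adjusted p 0.0755) and Rpl29 (-1.99 ± 0.42, adjusted p 0.0756) came near the threshold in pachytene against spermatogonia. Nascent Rps4x had 2.68, 3.60 and 0 FPKM in spermatogonia, so its nascent fall could only be small. The difference of Rps4x thus largely restates its fall in total RNA. The median was 0.15 for all members tested and 0.17 for all genes. A missed threshold with 2 or 3 animals per stage does not show that total and nascent RNA changed alike.

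**Figure D4:**
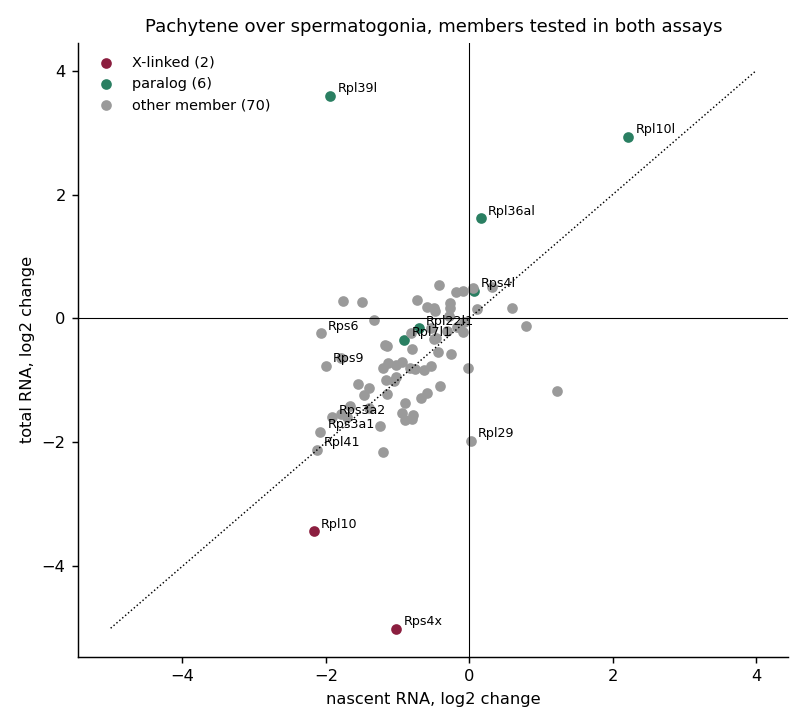
Change in pachytene against spermatogonia of 78 members tested in both assays, as log2 differences of FPKM + 1, with nascent RNA on the horizontal and total RNA on the vertical axis. Colours mark the X-linked genes, the paralogs and the other members, and the dotted line marks equal changes. Rpl10l lies high in both (2.21 nascent and 2.93 total) and Rpl39l is low in nascent RNA (-1.94) and high in total RNA (3.60).

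Most of these genes cannot be read in isolation, because 86 of 90 members had at least 1 other transcript that was near-identical (at least 90% identity over at least 50% of the reading frame). Rpl39l, Rpl3l and Rpl8 were among the 4 exceptions. The median member had 8.5 such transcripts and the highest number was 84, with 858 distinct rows in all. A member's own row held a median of 29.3% of the FPKM summed over it and its near-identical rows, and for 57 members the own row held less than the near-identical rows together. Rps7 shows how close they are. Its reading frame differs from the intronless Gm6472 at 3 of 585 bases, positions 26, 48 and 123 counted from the A of the start codon. The first 90 bases are shown with the 2 differences they hold in capitals.
Rps7: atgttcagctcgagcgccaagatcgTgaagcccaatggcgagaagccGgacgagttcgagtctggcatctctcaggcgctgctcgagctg
Gm6472: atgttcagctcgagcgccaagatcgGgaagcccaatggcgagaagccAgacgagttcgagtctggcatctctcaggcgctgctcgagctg

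The row of Rps7 had 3.34, 3.83 and 6.68 FPKM of total RNA in spermatogonia, 2.48 in preleptotene, 7.07, 16.7, 6.87 and 3.44 in leptotene and 17.7, 15.3, 1.01 and 3.45 in pachytene. Gm6472 lies on the X chromosome (chrX:152909505-152910155, minus strand), and its row had 105.6, 128, 116 and 122 FPKM in pachytene, against 109, 127 and 118 FPKM in spermatogonia. The total RNA of its row thus overlapped between these stages, while the rows of the 4 X-linked members were at or near 0 in pachytene. Nascent Gm6472 was 10.9, 11.7, 10.4 and 11.8 FPKM in pachytene, against 18.8, 16.1 and 20.96 FPKM in spermatogonia, with no overlap. Summed over Rps7 and all its near-identical rows, total RNA was 146, 168, 147 and 151 FPKM in pachytene, against 135, 157 and 148 FPKM in spermatogonia. The spread within stages, as an SD on the log2 scale, was 0.198 for the sum and 1.04 for the row of Rps7.

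Other members behaved likewise. The same SD was 0.413 for the sum and 2.05 for the row of Rps16, 0.324 and 1.71 for Rps28, and 0.512 and 1.73 for Rpl41. Over all members, 4 had an SD above 1 in the sums and 16 in the rows. With summed rows 3 members rose and 22 fell in total RNA of pachytene against spermatogonia (23.2% and 29.7% of all genes), and 2 rose and 27 fell in nascent RNA (15.6% and 28% of all genes). A sum may hold reads of transcribed copies or count a read at several rows, and how the authors treated reads with several matches is not given in the sources used here.

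**Figure D5:**
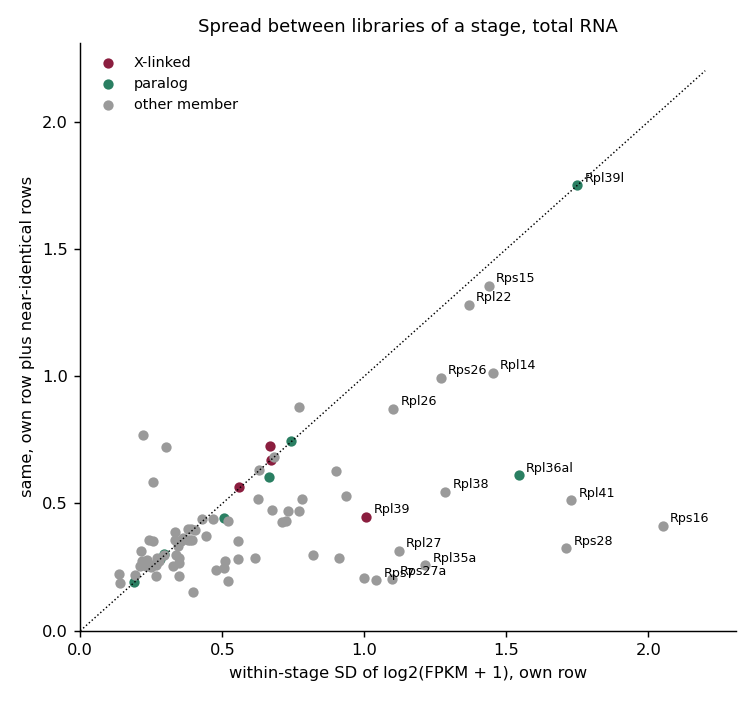
Spread of each ribosomal protein gene in total RNA within stages, as an SD of log2(FPKM + 1), for the gene's own row (horizontal axis) and for its row summed with near-identical rows (vertical axis). Points are genes and the line marks equality. Of the members, 16 exceed 1 on the horizontal axis and 4 on the vertical axis.

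The start sites were examined for the pyrimidine run from which the 5′ TOP element is transcribed. RefSeq promoter windows (GRCm38.p6, 250 bases before to 50 after each start) were found for 65 members, with 77 windows. A run of at least 8 C or T letters over the start was in 18 of 77 member windows (23.4%), against 3.86% of 32851 windows of all genes. The letters CCGGAAG, bound by ETS factors, were in 35.1% of member windows and 8.86% of all windows on either strand. AAGATGG, the core of the YY1 site, was in 15.6% and 6.34%, TATAAA in 10.4% and 13.6%, and CTTTCC in 49.4% and 26.6%. CTTTCC can lie inside a pyrimidine run. A match is a description of these letters and not of binding.

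The windows of 4 members named above that carry the run are shown from 30 bases before to 20 after the start, in the gene's direction, with the run in capitals. They are Rps6 (chr4:86857348-86857397, minus strand), Rps9 (chr7:3704011-3704060, plus strand), Rplp2 (chr7:141447621-141447670, plus strand) and Rpl15 (chr14:18270967-18271016, minus strand), with runs of 10, 9, 10 and 17 bases.
Rps6: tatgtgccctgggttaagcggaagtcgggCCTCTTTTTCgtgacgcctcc
Rps9: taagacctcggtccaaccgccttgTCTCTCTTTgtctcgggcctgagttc
Rplp2: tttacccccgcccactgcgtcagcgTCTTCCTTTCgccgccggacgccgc
Rpl15: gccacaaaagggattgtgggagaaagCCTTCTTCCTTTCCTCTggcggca

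Called falls were those of Rplp2 in total RNA, Rps6 and Rps9 in nascent RNA and Rpl15 in both. Rps6, Rps9 and Rpl15 were named because their falls were called, so these falls say nothing about the run. Whether members with the run fell more often than other members was not tested. The other genes of the pathway were read from lists. Of 20 further translation genes with a 5′ TOP element, 2 rose and 2 fell in total RNA of pachytene against spermatogonia, with a median of 0.03, while 23.1% of all genes rose and 29.7% fell. Pabpc1, the poly(A)-binding protein gene, rose by 2.71 and Btf3, of the nascent polypeptide complex, by 1.92, while Rack1, a protein of the small subunit head, and Tpt1 fell (-1.55 and -0.99). In nascent RNA 0 of 19 rose and 3 fell, with a median of -0.66, while 15.6% of all genes rose and 27.9% fell. The total excess over nascent RNA of this list was 1.02 in spermatogonia and 1.74 in pachytene at its median, close to that of the members in pachytene.

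Of 39 ribosome assembly factors tested, 1 rose and 11 fell in total RNA of pachytene against spermatogonia, with a median of -0.49, and 1 rose and 9 fell of 38 in nascent RNA, with a median of -0.73. The largest falls in total RNA were Tsr2 (-2.98), an escort of a small subunit protein, and the small nucleolar RNP genes Nop56 (-2.71) and Dkc1 (-2.46). Of all genes, 23.1% rose and 29.7% fell in total RNA and 15.6% rose and 27.9% fell in nascent RNA, so the shares of falls lie near those of all genes. Among 15 regulators of ribosome production, 2 rose and 6 fell in total RNA (23.1% and 29.7% of all genes): Mycn by -3.04, Akt1 by -2.83, Eif4ebp1 by -2.27 and Myc by -1.97 among the falls, and Mtor by 1.65 and Mdm2 by 1.61 as the rises. Mitochondrial ribosomal proteins, made for another ribosome, had 12 of 81 risen and 5 fallen in total RNA with a median of 0.25, and 2 of 72 risen and 6 fallen in nascent RNA with a median of -0.39. Their counts in either direction lay below the shares of all genes just given.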

How the data were processed

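Per the submitters' processing notes, the authors used STAR 2.5.2a, StringTie and mm10, and their deposited tables, 1 for each assay, give FPKM by gene symbol. The version of StringTie, the annotation, strand use and the handling of reads with several matches are not given in the sources used here, so overlapping genes are uncertain. A further deposited table holds a signal, nascent FPKM multiplied by the authors with 1 constant per library, for 9 of 12 nascent libraries. Depth is not given with FPKM. Libraries had 11988 to 14861 genes at 1 FPKM or more in total RNA and 8357 to 12332 in nascent RNA.

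The 92 spike-in rows were left out. Genes reaching 1 FPKM in 2 or more libraries were tested on log2(FPKM + 1) by limma 3.58.1 (R 4.3.3), with an intensity trend in the variance prior and Benjamini-Hochberg adjustment over all genes, in 1 fit of 4 stages per assay and 1 of assay by stage. Values of 1 animal at 1 stage were averaged first. The p-values measure the spread between these animals. Stages shared animals, and the main fits treat them as independent. Pairing by animal comes from the labels. Deviations of the same animal at different stages had correlations of 0.0155, 0.0803 and 0.0839 in total RNA and -0.119, -0.16 and 0.0539 in nascent RNA.

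Coordinates and reading frames come from GENCODE M21. Near-identical transcripts were found with blastn 2.17.0, frames aligned with Biopython 1.88, and the other steps ran in Python 3.11.15 with pandas 2.3.3, numpy 2.4.6 and matplotlib 3.10.9. Structural RNA rows were those with the symbols of ribosomal, small nuclear, small nucleolar, micro and other small RNAs. Members, lists and markers were chosen with earlier results of these data known. Named were the X-linked members, the paralogs, the stalk genes and Rpsa, the 4 largest called rises and falls of each comparison and the 3 genes of highest mean total FPKM per subunit. A few members that the rule names are not reported here. Rps7 and its copy, Rps16, Rps28, Rpl29 and the 4 start windows were chosen after their values were seen. Alternatives were another pseudocount, no filter, other scalings, each library as a sample, the animal as a block, summed near-identical rows, the 5S-corrected table and leaving out libraries.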

Additional observations from a re-analysis of the deposited data

Results flagged for a closer look

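Among 76 groups of 4 libraries, 6 held a library far from the other 3 by Dixon's test, which flags about 1 in 20 groups by chance. Leptotene library 2 was such a library for Rpl10l in total RNA (219.7 FPKM, with the others at 31.9 to 43.8), for Rplp0 in total RNA (157 FPKM, others 108 to 114) and for Rplp0 in nascent RNA (17.4 FPKM, others 10.5 to 11.6). Its pachytene markers summed to 778 FPKM in total RNA and 205 in nascent RNA. Leptotene library 3 had 2.74 FPKM of total Rpl36a, with the others at 0.244 to 0.651. Pachytene library 3 had 20.1 FPKM of nascent Rpl39l, with the others at 0.0773 to 0.399. Pachytene library 2 had 34.7 FPKM of nascent Rpl41, with the others at 0.955 to 4.48.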

How the results depend on the processing

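Counts of members called are given as higher and lower, without the shares of all genes in the same fits. With the animal as a replicate block, total RNA gave 1 and 6 in leptotene against spermatogonia and 2 higher in pachytene against leptotene, nascent RNA 1 and 9 in leptotene against spermatogonia, and the assay difference 0 higher in pachytene against spermatogonia; with this pairing no other count moved by over 1.5 times. With each library as a sample, total RNA gave 8 lower, 7 and 10, and 35 lower in leptotene against spermatogonia, pachytene against leptotene and pachytene against spermatogonia. Nascent RNA gave 1 and 10 in leptotene and 30 lower in pachytene against spermatogonia, and the assay difference 1 lower, 1 lower, and 3 and 2 in the same order. With summed near-identical rows, leptotene against spermatogonia gave 1 lower in total and 1 lower in nascent RNA, nascent RNA 2 higher in pachytene against leptotene and 27 lower against spermatogonia, and the assay difference 0 higher. Without the filter, total RNA gave 2 higher and nascent RNA 0 lower in pachytene against leptotene, nascent RNA 1 and 10 against spermatogonia, and the assay difference 1 and 2 lower. Spike-in scaling gave 20 and 3 and then 5 and 6 in total RNA of pachytene against leptotene and spermatogonia, 0 lower in nascent leptotene, 0 and 0 in both nascent pachytene comparisons, and 0 higher in the assay difference. Sums without spike-ins gave 9 higher in total and 4 higher in nascent RNA of pachytene against leptotene and 1 lower in the assay difference of pachytene against each stage. A pseudocount of 0.1 gave 11 lower in total RNA of pachytene against leptotene and 0 higher in the assay difference. Equal medians gave 5 and 13 in total RNA of pachytene against spermatogonia, 7 higher against leptotene and 10 lower against spermatogonia in nascent RNA, and 1 lower in the assay difference of pachytene against each stage. The 5S-corrected table gave 39 lower, 17 and 0, and 8 lower, and the uncorrected table over its 9 libraries 2 and 26, 5 and 7, and 26 lower. Without structural rows the shares were 1.87%, 1.28% and 1.12% in total and 0.525%, 0.370% and 0.360% in nascent RNA of spermatogonia, leptotene and pachytene.

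Leaving out 1 library moved total counts between 0 and 1 higher and 1 and 6 lower in leptotene against spermatogonia, 0 and 7 higher and 0 and 15 lower in pachytene against leptotene, and 2 and 4 higher and 9 and 30 lower in pachytene against spermatogonia. Nascent counts moved between 0 and 2 and 0 and 15, 0 and 3 and 0 and 4, and 1 and 3 and 4 and 27. Assay differences moved between 0 and 1 and 0 and 0, 0 and 2 and 0 and 3, and 0 and 2 and 0 and 3. Total shares moved between 0.786% and 0.843%, 0.470% and 0.555%, and 0.724% and 0.774% in spermatogonia, leptotene and pachytene, and nascent shares between 0.171% and 0.184%, 0.104% and 0.130%, and 0.118% and 0.149%.

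Of 743 alternative values for 37 called gene changes, 592 were called in the same direction, 149 were not called and 2 reversed, nascent Rpl41 (1.29) and Rps7 (0.00501) in pachytene against leptotene of the 5S-corrected table; the cause was not tested. Changes called throughout were those of Rpl10, Rpl10l, Rpl39 and Rps4x in total RNA of pachytene against spermatogonia and of Rps4x in leptotene against spermatogonia. A call lost under the animal block is no sign of a smaller change, since that fit has fewer degrees of freedom. Each stage has 2 or 3 animals and preleptotene 1 library, and low nascent levels limit what can be read for 12 members not tested there.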
